A study of Mus musculus with 8 samples.

Results

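Drd2+ neurons of the mouse striatum were examined as the nuclei that the deposited annotation table assigns to its cluster of Drd2+ neurons. They numbered 13203 of the 55672 annotated nuclei, or 23.7%, and formed 1 of 18 clusters. The striatum came from 12-week-old mice of 8 inbred strains: A/J, C57BL/6, 129S1/SvImJ, NOD/ShiLtJ, NZO/HlLtJ (NZO/H1LtJ in the labels), CAST/EiJ, PWK/PhJ and WSB/EiJ. The labels name no transgene and no treatment. The labels name C57BL/6J where the table writes C57BL_6NJ, so these mice are called C57BL/6 here. CAST/EiJ, PWK/PhJ and WSB/EiJ are strains derived from wild mice, NZO/HlLtJ is an obese strain and NOD/ShiLtJ is a strain prone to autoimmune diabetes. Each of 4 batches was a pool of nuclei from 1 mouse of every strain, which gave 32 mice, 4 per strain. A mouse was the replicate in every test, while pooled levels and shares of nuclei are descriptions over all mice. Each batch held 4 males and 4 females, but the table does not say which mouse was of which sex. Sex was not inferred from the counts and was in no model, so its part in the strain differences was not tested. RNA and open chromatin were profiled from the same nuclei, and only the RNA counts were used.

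Projection neurons of the striatum are inhibitory cells that fall into a direct pathway, marked by the dopamine receptor gene Drd1, and an indirect pathway, marked by Drd2. Dopamine lowers cyclic AMP in Drd2+ neurons through the D2 receptor, whereas adenosine raises it there through the adenosine receptor encoded by Adora2a. Indirect pathway neurons also make enkephalin, an opioid peptide cut from the product of Penk, and their activity is known to restrain movement.

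The 32 mice contributed between 262 and 949 Drd2+ nuclei, with a median of 393.5, and the 4 batches held 3692, 3627, 3093 and 2791. Summed counts per mouse ranged from 1251786 to 6803437. The median Drd2+ nucleus held 5953 unique molecular identifiers (UMIs), each counting 1 captured RNA molecule, and batch 3 was the shallowest at 4475. Of 13109 distinct cell barcodes, 94 occurred in more than 1 pool. Mitochondrial genes took 1.06% to 2.10% of the counts of a mouse.

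Promoters are shown for 4 genes that were higher in Drd2+ neurons than in Drd1+ neurons. They are those of 2 of the 5 markers (Drd2 and Gpr6) and of Nt5e and Fig4, which are among the genes that set this cluster apart, as described further on. The sequences are the 250 bases before the RefSeq start of each gene in build GRCm38.p6, or for Drd2 the 207 of them that no Drd2 transcript covers. Part of the Fig4 sequence lies inside the span of another gene, Ak9 (chr10:41303432-41433569). They lie at chr9:49340153-49340359 (+ strand) for Drd2, chr10:41072291-41072540 (- strand) for Gpr6, chr9:88327359-88327608 (+ strand) for Nt5e and chr10:41303242-41303491 (- strand) for Fig4. Capitals mark GC boxes, searched as GGGCGG or its complement CCGCCC, and a cyclic AMP response element, searched as TGACGTCA, which reads the same on both strands. In Nt5e, neighbouring GC boxes overlap and each is counted.
Drd2: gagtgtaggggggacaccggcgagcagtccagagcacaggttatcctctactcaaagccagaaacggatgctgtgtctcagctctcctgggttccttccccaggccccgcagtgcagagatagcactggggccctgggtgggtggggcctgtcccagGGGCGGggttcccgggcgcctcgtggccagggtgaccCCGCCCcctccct
Gpr6: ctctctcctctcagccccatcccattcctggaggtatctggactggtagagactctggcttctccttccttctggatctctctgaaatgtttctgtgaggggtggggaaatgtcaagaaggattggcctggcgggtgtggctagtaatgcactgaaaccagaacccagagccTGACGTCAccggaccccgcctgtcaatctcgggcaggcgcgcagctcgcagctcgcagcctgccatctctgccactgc
Nt5e: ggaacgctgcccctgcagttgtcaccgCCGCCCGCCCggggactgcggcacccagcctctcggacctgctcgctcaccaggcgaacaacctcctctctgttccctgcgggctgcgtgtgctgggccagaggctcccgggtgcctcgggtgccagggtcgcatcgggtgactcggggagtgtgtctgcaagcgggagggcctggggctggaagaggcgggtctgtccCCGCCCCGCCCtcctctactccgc
Fig4: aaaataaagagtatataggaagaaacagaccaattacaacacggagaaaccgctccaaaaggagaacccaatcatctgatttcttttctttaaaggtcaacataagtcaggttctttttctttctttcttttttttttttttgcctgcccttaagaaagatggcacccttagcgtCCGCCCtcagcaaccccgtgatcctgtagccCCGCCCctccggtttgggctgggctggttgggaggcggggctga

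The Drd2 promoter held 2 GC boxes, Nt5e 4, Fig4 2 and Gpr6 none, and Gpr6 alone of the 4 held the cyclic AMP response element. Of 32851 promoters of 250 bases, 32.7% held a GC box, 16.7% held at least 2, and 1.55% held TGACGTCA. The G and C content was 67.6% for Drd2, 58.4% for Gpr6, 72% for Nt5e and 46.4% for Fig4, against a median of 52.4%. A match of letters is not evidence of binding.

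The markers had the pattern that the name of the cluster implies. Clusters were defined on these genes, so their levels are a description with no test. Drd2, the D2 receptor gene (chr9:49340360-49408177), stood at 437 CPM (UMI counts of the gene scaled to a total of 1e+06) when all Drd2+ nuclei were pooled, against 11.9 CPM in the first and larger of 2 Drd1+ clusters (15395 nuclei). Over the 32 mice, Drd2 ranged from 292 to 537 CPM in Drd2+ neurons, with a median of 435, and from 3.87 to 26.7 CPM in Drd1+ neurons, so the 2 cell types did not overlap. Penk, the enkephalin precursor (chr4:4133536-4138815), ranged from 634 to 2015 CPM with a median of 1121, against 58.1 to 221 CPM in Drd1+ neurons. Both genes were thus higher in Drd2+ neurons of every mouse.

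The other 3 markers encode receptors and separated the same way. Adora2a (chr10:75316877-75334792) had a median of 164 CPM over mice (122 to 242) and 6.56 to 18.3 CPM in Drd1+ neurons. Gpr6 (chr10:41069977-41072290), an orphan receptor that signals toward cyclic AMP, had a median of 69.8 CPM (44.2 to 120) against 2.71 to 10.4 CPM. Gpr52 (chr1:160574717-160579704), another orphan receptor of that kind, stood at 22.8 CPM in the pooled nuclei and at 1.51 CPM in Drd1+ neurons. Gpr52 lies inside the span of Rabgap1l, so reads of the 2 genes cannot be told apart without strand.

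All 5 markers were higher in Drd2+ neurons than in any other cluster. The next level of Drd2 was 324 CPM in Chat+ cholinergic interneurons, which are known to carry the D2 receptor. For the other 4 markers the next cluster was the small one named mural cells, with Penk at 503, Adora2a at 82.0, Gpr6 at 36.5 and Gpr52 at 6.84 CPM, where Drd2 was 165 CPM. A list of 8 direct pathway markers, Drd1 among them, also had its highest sum of all clusters there, at 1553 CPM. Cacnb2, a gene high in both projection neuron types, was at 1817 CPM there. Whether RNA of projection neurons adds to the counts of that cluster was not tested.

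**Figure D1:**
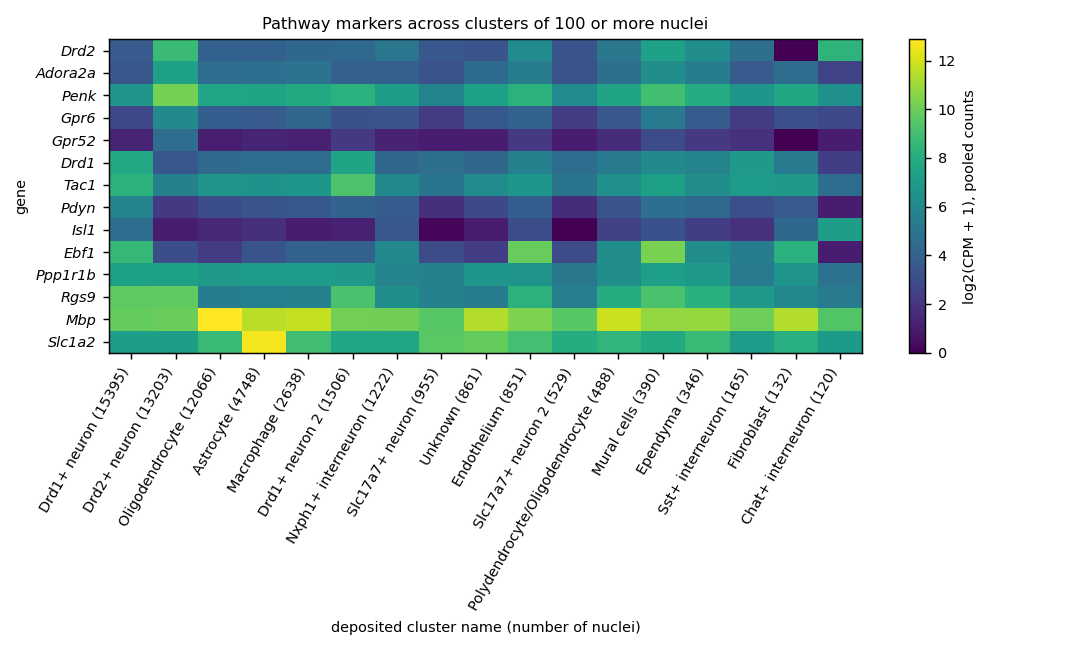
Pooled level in colour (log2 of CPM + 1) of marker genes (rows) in each annotated cluster of at least 100 nuclei (columns). Drd2, Adora2a, Penk, Gpr6 and Gpr52 each have their highest level in the Drd2+ cluster.

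Marker detection per nucleus was compared after thinning each nucleus to 2000 UMIs, which left out 165 shallower Drd2+ nuclei. Penk was then detected in 79.9% of Drd2+ nuclei, Drd2 in 55.3%, Adora2a in 28.1%, Gpr6 in 13.5% and Gpr52 in 4.49%. Before thinning the shares were 95%, 85.7%, 59.8%, 32.8% and 12.7%. In Drd1+ nuclei the thinned shares were 15.7% for Penk, 1.55% for Drd2, 1.77% for Adora2a, 1.16% for Gpr6 and 0.252% for Gpr52. Oligodendrocytes, which should lack these genes and had a median of 1640 UMIs, still showed Penk in 28.9% and Drd2 in 3.13% of nuclei after thinning, which kept the 3311 deepest and left out 8755. Oligodendrocyte nuclei were shallower than neurons before thinning, so their shares are set beside those of neurons without an order being read. In pooled nuclei, Penk stood at 302 CPM in endothelium, 300 in the second Drd1+ cluster, 241 in ependyma and 230 in macrophages. It was at 196 CPM in oligodendrocytes, 146 in Nxph1+ interneurons, 105 in the first Drd1+ cluster and 88.2 in Chat+ interneurons. The clusters of Slc17a7+ excitatory neurons had 74.2 and 55.6 CPM. In the second Drd1+ cluster (1506 nuclei), Penk was detected in 37.1% of nuclei after thinning.

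Drd1 was detected in 661 Drd2+ nuclei, or 5.01%, before thinning. After thinning its share was 1.64%, against 35.7% in Drd1+ nuclei and 3.73% in oligodendrocytes. Whether the Drd1 counts of Drd2+ nuclei come from free RNA was not tested. At least 3 of the 5 markers were detected in 66.8% of Drd2+ nuclei. None was detected in 70 nuclei (0.530%), whose median of 2785.5 UMIs was below that of the cluster.

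Few genes stood 2-fold or more above every other cluster of at least 100 nuclei. Of 6381 genes at 20 CPM or more, 274 had their highest level there among clusters of at least 100 nuclei, and 3 exceeded the next cluster by 2-fold or more. These were Gpr52 (3.34-fold), Penk (2.26-fold) and Adora2a (2.02-fold). Gpr6 (1.92-fold) and Nt5e (1.88-fold), the ecto-5'-nucleotidase that makes adenosine outside cells, came next. The next cluster was the mural cells (390 nuclei, direct pathway markers also high) for Gpr52, Penk, Adora2a and Gpr6. For Nt5e it was the fibroblasts (132 nuclei). The next cluster held 9 counts of Gpr52 (mural cells) and 6 of Nt5e (fibroblasts), so these ratios and their order are imprecise. The other leading genes were Fig4, a phosphoinositide phosphatase (1.85-fold), Vat1l (1.57-fold), the calcium channel subunit gene Cacnb2 (1.50-fold, at 2786 CPM) and 4 predicted genes. Vat1l was higher in a smaller cluster left out here, Unknown_2 (57 nuclei), at 711 CPM (144 counts) against 129 CPM in Drd2+ neurons.

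Against the first Drd1+ cluster the contrast was wider. Of 6590 genes at 20 CPM or more in either cluster, 44 were at least 2-fold higher in Drd2+ neurons and 59 at least 2-fold lower. The delta opioid receptor gene Oprd1, whose product binds enkephalin, led with 60.7 against 1.61 CPM, or 37.8-fold. The kainate receptor subunit gene Grik3 followed Drd2, at 201 against 5.54 CPM (36.3-fold). The netrin receptor gene Unc5d stood at 203 against 7.21 CPM (28.2-fold) and the muscarinic receptor gene Chrm3 at 295 against 11.5 CPM (25.7-fold). All of these genes were higher in Drd2+ neurons in 32 of 32 mice.

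Some of the other genes that were higher are named here after their values were seen. Nt5e was at 44.5 against 9.72 CPM (4.57-fold), and Adk, the kinase that removes adenosine inside cells, at 346 against 73.5 CPM (4.71-fold). Others were the serotonin receptor gene Htr4 (5.52-fold), the GABA-A subunit gene Gabra3 (8.36-fold) and the phosphodiesterase gene Pde4b (2.38-fold).

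On the other side stood genes of the direct pathway. The transcription factor gene Ebf1 was at 7.43 CPM in Drd2+ and 383 CPM in Drd1+ neurons. Drd1 was at 10.2 against 219 CPM, and Pdyn, the dynorphin precursor, at 3.53 against 52.5 CPM. Tac1, the substance P precursor, was at 50.1 against 310 CPM. Lingo2, a neuronal membrane protein gene, was at 55.4 against 2493 CPM. Genes of the cyclic AMP machinery were mixed. The ratio of Drd2+ to Drd1+ was 1.00 for Adcy5, the main striatal adenylyl cyclase, 0.98 for Ppp1r1b, which encodes DARPP-32, 1.09 for Pde10a and 1.11 for Gnal. It was 2.07 for Gnas, the gene of a stimulatory G protein subunit, and 0.452 for Gnai1, that of an inhibitory subunit, in the same direction in 32 of 32 mice.

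Some genes beside the markers had the same pattern. Within 250 kb of the 5 markers, 17 genes reached 5 CPM in either cluster and 6 were at least 2-fold higher in Drd2+ than in Drd1+ neurons, against 0.762% of all 11150 genes at that level. Ankk1, a kinase gene 7.017 kb from Drd2, was at 8.26 against 0.317 CPM. Upb1, which encodes an enzyme of pyrimidine breakdown and lies 72.1 kb from Adora2a, was at 17.5 against 0.788 CPM. Fig4, 116 kb from Gpr6, was at 116 against 20.2 CPM, and A830012C17Rik, 9.215 kb from Penk, was at 20.7 against 2.47 CPM. The other 2 were Gucd1 near Adora2a (2.26-fold) and Ak9 near Gpr6 (3.26-fold), which lies next to Fig4. Not every neighbour followed: Ncam1 near Drd2 had a ratio of 0.948 and Bcr near Adora2a 1.01. Whether reads running on from a marker gene add to these counts was not tested.

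The share of Drd2+ neurons among the nuclei of a mouse ran from 18.0% to 29.4% and did not differ by strain beyond the spread between mice (permutation test within batches, adjusted p = 0.497). As a share of neurons it did differ (adjusted p = 0.0111), with 43.4% ± 3.31 in NOD/ShiLtJ, 42.9% ± 1.63 in WSB/EiJ and means of 38.0% to 40.1% in the other strains. Their number relative to Drd1+ nuclei differed as well (adjusted p = 3e-05, from the smallest p that 100000 resamples can give). NOD/ShiLtJ mice had 0.997, 1.11, 1.12 and 1.17 Drd2+ nuclei per nucleus of the first Drd1+ cluster, a mean of 1.10 ± 0.0735 (SD, n = 4). WSB/EiJ mice had 0.962, 0.985, 0.940 and 0.985. The median over mice of the 6 remaining strains was 0.814 and their range 0.708 to 0.924, so neither NOD/ShiLtJ nor WSB/EiJ overlapped them. NOD/ShiLtJ was the highest strain in all 4 batches. Its Drd1+ nuclei made up 21.0% ± 1.32 and its Drd2+ nuclei 23.1% ± 2.27 of all nuclei (SD, n = 4). In the other strains, means were 26.9% to 30.6% for Drd1+ nuclei and 22.0% to 26.1% for Drd2+ nuclei. With both Drd1+ clusters as the denominator, the ratio of NOD/ShiLtJ was 0.998 ± 0.0670.

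**Figure D2:**
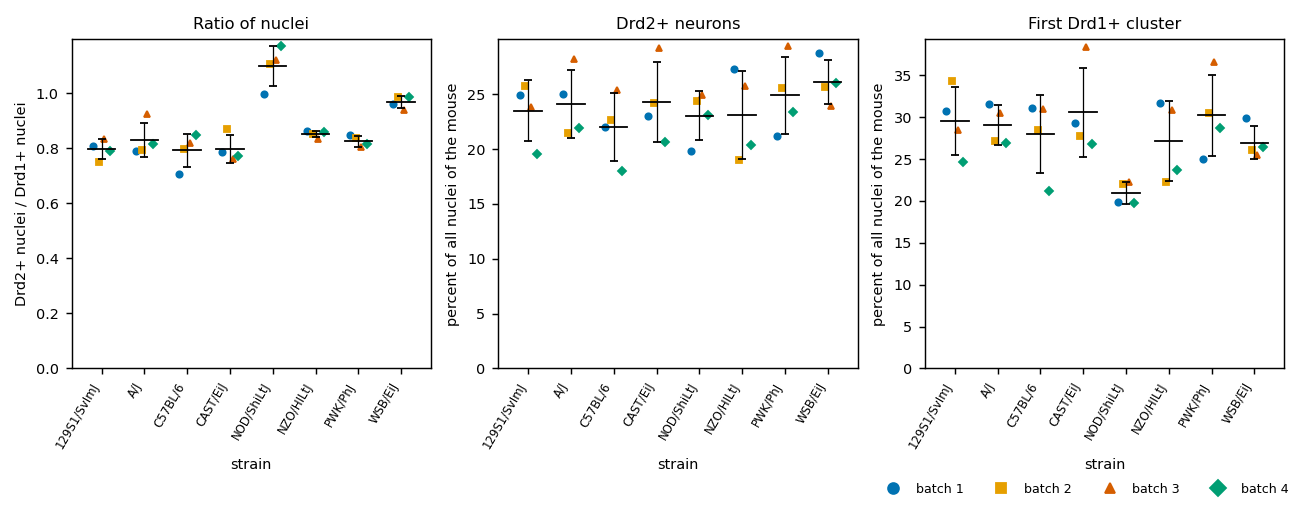
Ratio of Drd2+ to Drd1+ nuclei, and share of each of these clusters in percent of all nuclei, in each mouse by strain (points, marked by batch; lines and error bars give the mean ± SD of 4 mice). In the ratio, NOD/ShiLtJ and WSB/EiJ mice lie above 0.924, the highest mouse of the other 6 strains.

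The depth of Drd2+ nuclei also differed by strain (permutation test within batches, adjusted p = 3e-05), but not with the batch block left out. The median UMI count per nucleus was lowest in PWK/PhJ (5245 ± 718), CAST/EiJ (5438) and WSB/EiJ (5648), and highest in A/J (6238). Levels were therefore scaled to the total of each library, and a fit on libraries thinned to 1 size was run beside the main fit. Counts were made on the C57BL/6J genome build, and whether reads of other strains align less well was not tested.

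Many genes differed between strains in Drd2+ neurons. The strain term passed an adjusted p of 0.05 for 7153 of 12799 genes tested, or 55.9%, in edgeR's quasi-likelihood test with batch in the model. Of these, 2987 spanned at least 1 log2 unit between the highest and lowest strain. The same test called 61.7% of genes in the first Drd1+ cluster, from more nuclei. Of 12700 genes tested in both cell types, 885 were called in Drd2+ neurons alone, which does not show that they differ between the 2. With every library thinned to the smallest total, 3883 genes were called in Drd2+ neurons.

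Strain terms were also counted among the genes that were higher or lower than in Drd1+ neurons. Of the 44 genes at least 2-fold higher than in Drd1+ neurons, 41 had a called strain term (93.2%), with a median span of 0.85 log2 units. Of 57 tested genes at least 2-fold lower, 47 had one (82.5%), with a median span of 1.42, but several of these were at low levels in Drd2+ neurons, such as Ebf1 at 7.43 and Pdyn at 3.53 CPM. The share called was 64.3% and the median span 0.48 among all genes at 20 CPM or more in either cell type, against which these values are to be read, and no difference between the sets was tested. The 12 genes leading over the other clusters of at least 100 nuclei were all called.

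Among the 5 markers, Drd2 itself was the one whose strain term was not called (adjusted p = 0.0633; 0.0211 with no filter on low counts). CAST/EiJ had the lowest strain mean, 389 ± 92.4 CPM, and A/J the highest, 470 ± 72.3 CPM (SD, n = 4), and mice of the 2 strains overlapped. Against the mean of the other 7 strains, Drd2 was called lower in CAST/EiJ (-0.17 ± 0.06 log2 units, SE, adjusted p = 0.0321). Adora2a was called (adjusted p = 0.00475). PWK/PhJ mice had 214, 191, 233 and 181 CPM, a mean of 205 ± 23.2, while the means of the other strains were 161 to 171 CPM. The Adora2a difference of PWK/PhJ from the mean of the other 7 strains was 0.32 ± 0.06 log2 units (SE, adjusted p = 7.03e-05). The strain term of Adora2a had an adjusted p of 0.0898 without batch 1 and of 0.0892 with no batch term.

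Penk differed by strain (adjusted p = 0.000427) in a direction that was seen within batches. A/J mice had 776, 660, 1456 and 1056 CPM in batches 1 to 4, and NOD/ShiLtJ mice had 1165, 1015, 1978 and 1477 CPM. Penk was higher in NOD/ShiLtJ than in A/J in every batch, although the 2 sets of values overlapped between batches. Relative to the other 7 strains, Penk was -0.35 ± 0.07 log2 units in A/J (SE, adjusted p = 0.000421) and 0.25 ± 0.07 in NOD/ShiLtJ (adjusted p = 0.00881). Gpr6 (adjusted p = 0.00731) was lowest in 129S1/SvImJ, at 62.5 ± 18.9 CPM, and highest in CAST/EiJ, at 83.9 ± 18.7 CPM. With batches left out of the model as a block, the adjusted p was 0.889 for Penk and 0.913 for Gpr6, and that of Gpr6 was 0.0732 without batch 1 and 0.101 with no filter on low counts.

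Gpr52 had an adjusted p of 0.00163 for the strain term and 0.0647 in thinned libraries. It stood at 28.6 ± 8.22 CPM in CAST/EiJ and at 18.5 CPM in both 129S1/SvImJ and NOD/ShiLtJ. Sp9, a transcription factor gene of indirect pathway neurons, ranged from 11.8 to 27.9 CPM over the 32 mice and was not called (adjusted p = 0.358). Grik3 was called (adjusted p = 0.00102) and lowest in PWK/PhJ (164 ± 33.0 CPM), but had an adjusted p of 0.245 with no batch term.

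Batch had its own pattern in the markers. Penk and Gpr6 were highest in batch 3 in 8 of 8 strains, and Drd2 was lowest there in 8 of 8. The Penk means of the 4 batches were 1037 ± 156, 895 ± 137, 1765 ± 212 and 1169 ± 141 CPM (SD, n = 8), and those of Drd2 were 471 ± 44.9, 486 ± 23.2, 345 ± 29.1 and 419 ± 54.1 CPM. Among all 12799 genes, 0.922% were highest and 0.906% lowest in batch 3 in every strain. Batch 3 was also the batch with the fewest UMIs per nucleus, and the part of depth in this pattern was not tested.

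**Figure D3:**
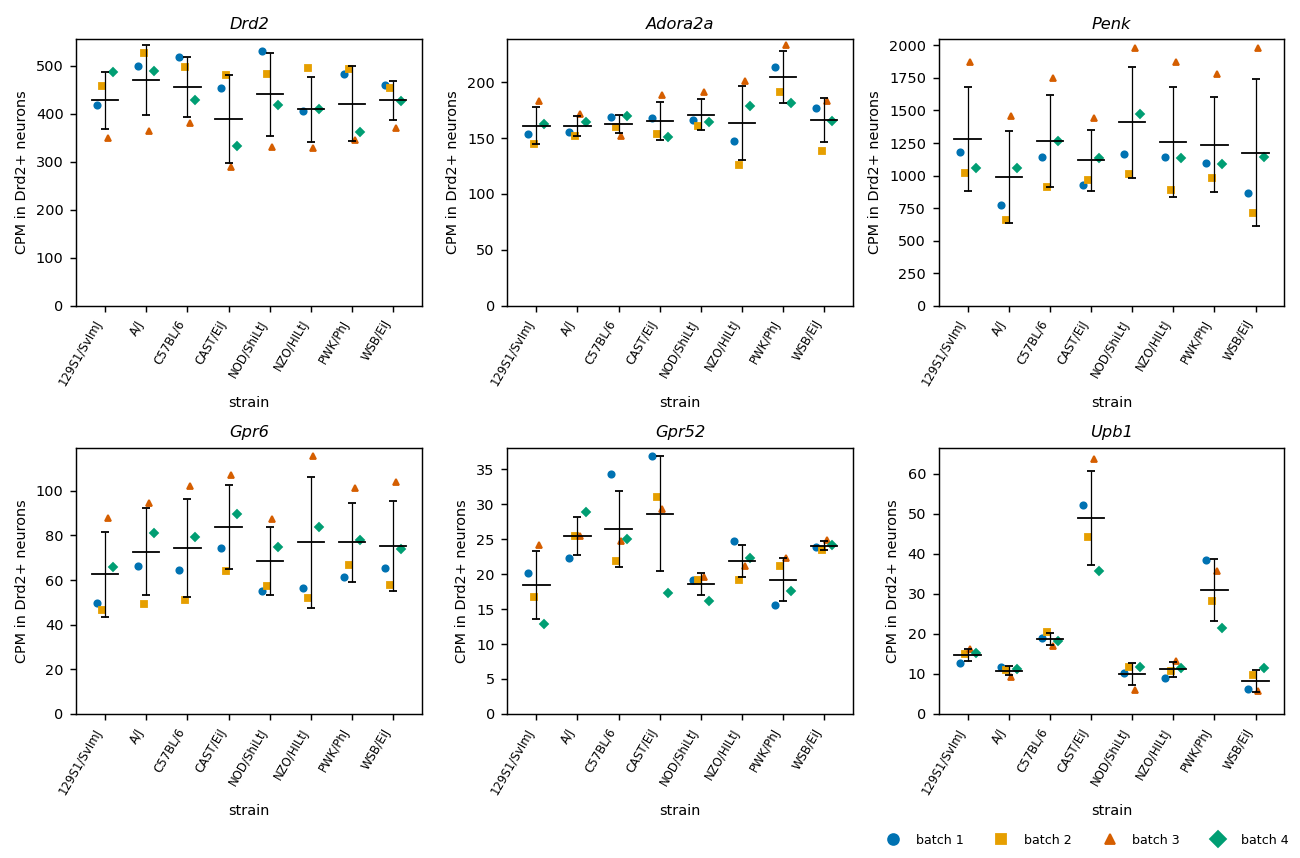
Level in CPM of the 5 markers and of Upb1 in Drd2+ neurons of each mouse by strain (points, marked by batch; lines and error bars give the mean ± SD of 4 mice). Penk and Gpr6 have their highest mouse in batch 3 in every strain, and Upb1 is highest in CAST/EiJ and PWK/PhJ.

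Upb1, the neighbour of Adora2a, varied far more than the marker beside it. Its strain term had an adjusted p of 8.16e-17. CAST/EiJ mice had 52.2, 44.2, 63.5 and 35.7 CPM, and PWK/PhJ mice had 38.5, 28.1, 35.6 and 21.4 CPM. WSB/EiJ was the lowest strain, at 8.22 ± 2.74 CPM (SD, n = 4). The difference from the other 7 strains was 1.82 ± 0.13 log2 units in CAST/EiJ (SE, adjusted p = 1.87e-16) and -1.06 ± 0.18 in WSB/EiJ (adjusted p = 1.02e-05).

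The 15 genes with the largest strain F all had adjusted p of at most 6.47e-17. Cwc22, a splicing factor gene whose copy number varies among mouse strains, led: WSB/EiJ mice had 1549, 1656, 1419 and 1461 CPM, and the mice of the other strains 23.5 to 64.7 CPM. Reads of near-identical copies cannot be told apart at Cwc22, or at Tmem181a, where 129S1/SvImJ averaged 214 ± 25.9 CPM and WSB/EiJ 19.5 ± 4.19 CPM. Nkain2, a gene for a partner of the sodium pump, stood at 835, 839, 762 and 871 CPM in CAST/EiJ mice, while the other strain means were 3184 to 4012 CPM. None of the CAST/EiJ mice overlapped the others at Nkain2.

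At several of these genes the strains split in 2. Ulk4, a kinase-like gene, averaged 127 to 133 CPM in NZO/HlLtJ, 129S1/SvImJ and C57BL/6 mice, and 30.3 to 39.4 CPM in the other 5 strains. Psat1, an enzyme gene of serine synthesis, had means of 83.8 CPM in NOD/ShiLtJ, 84.3 in A/J and 93.9 in WSB/EiJ, against 10.3 to 15.7 CPM elsewhere. Acp1, a phosphatase gene, had means of 94.4 to 108 CPM in A/J, 129S1/SvImJ and C57BL/6, against 15.9 to 25.6 CPM elsewhere. In none of these 3 genes did the mice of the high and low strains overlap.

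Of the other genes, Dgkg and Acad12 were set apart by 1 or 2 strains. Dgkg, a diacylglycerol kinase gene, was at 12.2 ± 2.48 CPM in PWK/PhJ and 20.7 ± 5.29 in CAST/EiJ, against means of 63.3 to 123 CPM. Acad12, an acyl-CoA dehydrogenase gene, was at 58.6 ± 19.1 CPM in CAST/EiJ, against means of at most 4.71 CPM. Snhg11, a long noncoding RNA gene, was at 521 ± 40.7 CPM in NZO/HlLtJ and at 2516 ± 247 CPM in PWK/PhJ. Catspere1, a sperm ion channel subunit gene, ran from 0.328 CPM in 129S1/SvImJ to 137 ± 8.11 CPM in PWK/PhJ.

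Each strain was next compared with the mean of the other 7. PWK/PhJ had the most called genes (3881, 30.3% of those tested) and CAST/EiJ the next most (3602, 28.1%). NZO/HlLtJ followed with 2364 (18.5%), WSB/EiJ with 1959 (15.3%), A/J with 1950 (15.2%), NOD/ShiLtJ with 1555 (12.1%), C57BL/6 with 1423 (11.1%) and 129S1/SvImJ with 1415 (11.1%). Calls were split into 1943 higher (15.2%) and 1938 lower (15.1%) in PWK/PhJ, and in each of the other 7 strains more genes were called higher than lower, as in NOD/ShiLtJ with 970 and 585. Over the 28 pairs of strains the median was 1898 called genes. The pair of 129S1/SvImJ and C57BL/6 had the fewest (871) and that of A/J and PWK/PhJ the most (3754). Without the mice of batch 2, the counts were 909 for 129S1/SvImJ, 1170 for A/J, 1000 for NOD/ShiLtJ and 1298 for WSB/EiJ, with a median of 1247 over pairs. Without those of batch 1, the count for NZO/HlLtJ was 1560.

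Genes whose 4 mice all lay outside the range of the other 28 were rarer. They made up 2.8% of tested genes in PWK/PhJ, 2.76% in CAST/EiJ, 0.711% in NZO/HlLtJ, 0.375% in NOD/ShiLtJ and 0.672% in WSB/EiJ. The shares were 0.188% in 129S1/SvImJ, 0.266% in A/J and 0.305% in C57BL/6. Scn10a, a sodium channel gene known from sensory neurons, had 113 counts in the 4 PWK/PhJ mice (14.9, 16.4, 7.24 and 11.3 CPM) and 2 counts in the other 28. Counts pooled over mice gave a 479-fold ratio with a 95% counting interval of 129 to 4001, which leaves out the spread between mice. In edgeR, with the mouse as replicate, the Scn10a difference was 7.57 ± 0.40 log2 units (SE, adjusted p = 1.44e-16). Rnf212, a gene of meiotic recombination, was at 14.1, 12.2, 16.9 and 20.6 CPM in PWK/PhJ and at most 0.903 CPM in the other mice (adjusted p = 1.25e-19).

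CAST/EiJ was set apart by Sult3a1, a sulfotransferase gene, at 38.4, 42.1, 38.1 and 29.2 CPM. The other 28 mice reached at most 1.21 CPM, and 23 of them had no count (adjusted p = 1.19e-24). Ssmem1 was at 30.6, 23.0, 31.8 and 24.3 CPM in CAST/EiJ against at most 0.604 CPM (adjusted p = 4.73e-24). WSB/EiJ was set apart by Cwc22, given above, and by Olr1, a receptor gene for oxidised lipoprotein, at 9.83, 8.02, 17.8 and 16.3 CPM against at most 0.981 CPM (adjusted p = 4e-17). All 4 genes were called by the rule of choice, and their direction was higher.

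The genes naming NZO/HlLtJ were both lower there. Fndc1 was at 2.25, 4.51, 1.08 and 6.93 CPM against 22.0 to 90.0 CPM in the other mice, a difference of -3.63 ± 0.20 log2 units (SE, adjusted p = 1.61e-19). Fam57a, a ceramide synthesis gene, was at 1.60, 0.564, 6.47 and 2.97 CPM against 21.1 to 40.1 CPM (adjusted p = 2.19e-17). In NOD/ShiLtJ, the synaptotagmin gene Syt9 was lower, at 3.43, 2.69, 1.78 and 2.27 CPM against 3.77 to 33.4 CPM (adjusted p = 1.27e-11). Ctcflos was higher there, at 10.8, 10.4, 7.72 and 12.9 CPM against at most 3.95 CPM (adjusted p = 1.94e-12).

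In A/J the 2 genes were higher. Insyn2b, a paralog of an inhibitory synapse protein gene, was at 41.7, 47.3, 42.2 and 40.1 CPM against at most 25.4 CPM (2.91 ± 0.15 log2 units, adjusted p = 4.31e-18). Dock2, a guanine exchange factor gene known from immune cells, was at 24.7, 18.8, 20.3 and 18.0 CPM against 0.562 to 14.7 CPM (adjusted p = 3.49e-17). In C57BL/6 the 2 genes were lower. Phldb2 had 2 counts in the 4 C57BL/6 mice and 1391 in the other 28, an 85.3-fold ratio of pooled levels with a 95% counting interval of 23.6 to 705. The axonemal dynein gene Dnah6 was at 2.72, 3.72, 2.81 and 2.84 CPM against 4.33 to 241 CPM (adjusted p = 9.43e-11).

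In 129S1/SvImJ, the collagen gene Col5a2 was higher, at 18.7, 25.6, 25.8 and 12.4 CPM against at most 11.4 CPM (adjusted p = 1.24e-09). Osbpl1a, an oxysterol-binding protein gene, was lower there, at 9.94, 7.69, 9.69 and 10.1 CPM against 12.7 to 62.6 CPM (adjusted p = 1.64e-15). By the rule of choice, the 129S1/SvImJ mice lay outside the range of all other mice at both genes.

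**Figure D4:**
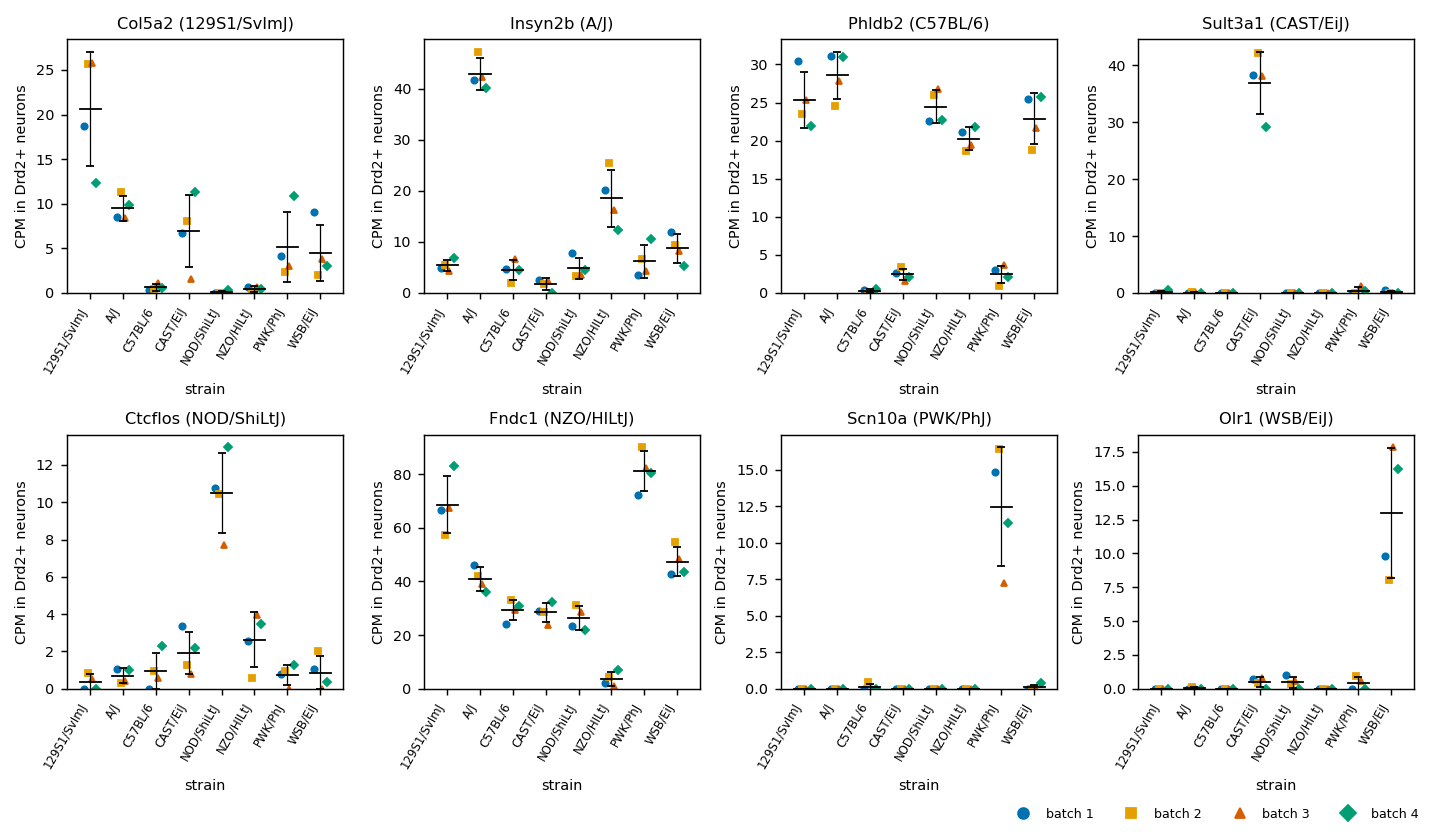
Level in CPM in Drd2+ neurons of each mouse of 1 gene chosen for each strain, named in the panel title (points, marked by batch; lines and error bars give the mean ± SD of 4 mice). By the rule of choice, the 4 mice of the named strain lie outside the range of the other 28 in each panel. Phldb2 is also low in CAST/EiJ and PWK/PhJ.

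Lists of genes known from striatal projection neurons were then counted, against 55.9% of all genes tested. Of 18 tested genes common to both projection neuron types, 15 had a called strain term, while Gnal, Foxp1 and Meis2 were not called. Their median span was 0.47 log2 units, against 0.64 for all tested genes. Among genes at 20 CPM or more in Drd2+ or Drd1+ neurons, the median span was 0.48 and 64.3% were called. Rgs9, which speeds the shutdown of G protein signals, was at 690 ± 51.8 CPM in NZO/HlLtJ, -0.35 ± 0.06 log2 units from the other strains (SE, adjusted p = 5.3e-06). In NZO/HlLtJ, 7 genes of this list were lower and 0 higher, against 7.72% and 10.8% of all genes tested. Some markers of other cells were also higher in NZO/HlLtJ. The polydendrocyte list summed to 108 ± 16.1 CPM there, against means of 48.8 to 85.8 CPM elsewhere. Of its 3 tested genes, Vcan and Ptprz1 were called higher and Olig1 was not, while Pdgfra and Cspg4 did not pass the filter. Of 3 tested neuroblast genes, Dcx and Sox11 were called higher there and Mki67 was not. Among all genes tested, 10.8% were called higher in NZO/HlLtJ. The part of polydendrocytes and neuroblasts was not tested. The retinoic acid receptor gene Rarb averaged 1475 ± 138 CPM in A/J and 849 ± 48.1 CPM in PWK/PhJ (strain term, adjusted p = 1.54e-13).

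Of 33 tested genes of dopamine and adenosine reception and cyclic AMP, 20 were called, a share close to the 55.9% of all genes, with a median span of 0.44. Pde4b, which breaks down cyclic AMP, was at 2135 ± 345 CPM in NZO/HlLtJ and 2060 ± 385 in CAST/EiJ, and at 1100 ± 198 in WSB/EiJ (adjusted p = 2.64e-06). Of 19 other receptor genes for modulators, 18 were called, with a median span of 0.89 that was above that of all tested genes; the muscarinic receptor gene Chrm1 was not called (adjusted p = 0.531). Htr4, a serotonin receptor gene that raises cyclic AMP, was at 384, 330, 295 and 283 CPM in PWK/PhJ, 1.17 ± 0.08 log2 units above the other strains (SE, adjusted p = 4.37e-13).

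Of the 19 receptor genes, 4 were higher and 3 lower in NZO/HlLtJ, where 10.8% and 7.72% of all genes were. The following members were picked after their values were seen. Oprd1 was lower there, at 45.8 ± 10.5 CPM, and at 80.6 ± 9.54 in NOD/ShiLtJ (strain term, adjusted p = 5.65e-06). Oprm1, the mu opioid receptor gene, was higher in NZO/HlLtJ, at 75.8, 59.8, 57.5 and 55.9 CPM (0.93 ± 0.17 log2 units, adjusted p = 0.000396). Cnr1, the cannabinoid receptor gene, was lower in NZO/HlLtJ, at 145, 140, 116 and 168 CPM (-1.03 ± 0.18, adjusted p = 0.000181). Oprk1, the kappa opioid receptor gene, was at 38.1 ± 12.1 CPM there and was not called in that contrast (adjusted p = 0.764).

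Synaptic and channel genes had a called strain term in most cases. So did 55.9% of all genes tested, and 64.3% of those at 20 CPM or more in Drd2+ or Drd1+ neurons. The median span was 0.51 log2 units for the glutamate and GABA receptor genes and 0.57 for the channel genes, against 0.48 at that level. Of 25 glutamate and GABA receptor genes, 20 were called, and in PWK/PhJ 2 were higher and 10 lower, where 15.2% and 15.1% of all genes tested were. Gabrg3, a GABA-A receptor subunit gene, was at 751 ± 57.3 CPM in CAST/EiJ and 777 ± 86.4 in PWK/PhJ, against means of at least 1336 CPM elsewhere (adjusted p = 7.1e-24). Of 31 channel genes, 28 were called, with 2 higher and 13 lower in PWK/PhJ, against the same 15.2% and 15.1% of all genes. In CAST/EiJ 11 were higher and 2 lower, where 14.8% and 13.3% of all genes tested were. Kcnq5, which encodes a subunit of the M-type potassium channel, was at 8090, 7586, 6253 and 6797 CPM in NZO/HlLtJ, while the other strain means were 3079 to 3346 CPM. The Kcnq5 difference was 1.17 ± 0.04 log2 units (SE, adjusted p = 1.64e-25), and no other mouse overlapped NZO/HlLtJ. Cacna2d3, a calcium channel subunit gene, was at 1587 ± 145 CPM in PWK/PhJ (-0.76 ± 0.05, adjusted p = 1.89e-17).

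Some markers of other cell types had a called strain term in these libraries. Mbp, the myelin basic protein gene of oligodendrocytes, averaged 1071 ± 78.6 CPM in PWK/PhJ and 906 to 993 CPM in the other strains (SD, n = 4; strain term, adjusted p = 0.0173, or 0.0787 without batch 1 and 0.231 without batch 3). Of 6 astrocyte markers, 2 had a called strain term (Slc1a2 and Gja1), a lower share than the 55.9% of all genes. Summed over that list, they stood at 229 ± 11.7 CPM in PWK/PhJ and at means of 163 to 203 CPM in the other strains, against 10254 CPM in astrocytes themselves. Single mice ranged from 107 to 243 CPM. Their part in the PWK/PhJ differences was not tested. Of 6 tested direct pathway markers 4 had a called strain term (Tac1, Ebf1, Sfxn1 and Eya1), a share close to the 55.9% of all genes. Against the mean of the other 7 strains, Drd1, Tac1, Ebf1 and Sfxn1 were called higher in CAST/EiJ, where 14.8% of all genes tested were. The markers of that list summed to 128 ± 19.1 CPM in CAST/EiJ Drd2+ neurons and ranged from 72.7 to 155 CPM over all mice. Eccentric projection neuron markers summed to 44.0 ± 5.99 CPM in CAST/EiJ and to 12.2 ± 1.72 CPM in 129S1/SvImJ. Of 4 tested, Otof and Casz1 were called higher in CAST/EiJ, and Col11a1 and Cacng5 were not. Cholinergic interneuron markers, of which Chat passed the filter, summed to 17.9 ± 2.24 CPM in PWK/PhJ and to means of 3.77 to 11.7 CPM elsewhere. The part of these markers in the differences of their strains was not tested. Nuclei of a pool shared 1 suspension, so free RNA from another strain could be counted in a nucleus, and its part was not tested either. With nuclei holding a Drd1 count left out, 6966 genes were called, of which 6771 were among the 7153.

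The strain effect differed between Drd2+ and Drd1+ neurons of the same mice at fewer genes. The interaction of strain and cell type, fitted in edgeR with each mouse as a block, was called for 631 of 13791 genes (4.58%), and 1739 had an unadjusted p under 0.05. Without the mouse block, 96 genes were called. Of the 613 called genes tested in both cell types, 345 had the wider strain span in Drd2+ neurons. The strain farthest from the rest in the ratio of Drd2+ to Drd1+ was PWK/PhJ for 145 genes, CAST/EiJ for 127 and A/J for 41. The interaction was not called for Drd2 (adjusted p = 0.780), Adora2a (0.386), Gpr6 (0.963) or Gpr52 (0.917).

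Penk was the marker with a called interaction (adjusted p = 7.44e-05). In Drd1+ neurons of A/J mice it stood at 173, 161, 213 and 230 CPM, above all other mice (58.0 to 145 CPM), while in Drd2+ neurons A/J had the lowest strain mean. The log2 ratio of Drd2+ to Drd1+ was 2.29 ± 0.33 in A/J (SD, n = 4) and had means of 3.39 to 3.98 in the other strains. Pooled over strains, Penk was at 105 CPM in Drd1+ neurons and at 196 CPM in oligodendrocytes. The part of free RNA in the Drd1+ levels was not tested.

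PWK/PhJ set apart 4 of the 8 genes chosen for a wider strain span in Drd2+ neurons. Epha6, an ephrin receptor gene, was at 373, 445, 333 and 509 CPM in Drd2+ neurons of PWK/PhJ, against 869 to 1416 CPM in the other mice (interaction, adjusted p = 7.97e-30). Its log2 ratio was -0.66 ± 0.09 in PWK/PhJ and between -0.07 and 0.30 in every other mouse. Reln, which encodes the secreted protein reelin, was at 145, 99.9, 115 and 85.3 CPM in PWK/PhJ against 169 to 412 CPM, with a ratio of -2.17 ± 0.10 (adjusted p = 5.76e-12). Fstl5 was higher in Drd2+ than in Drd1+ neurons of PWK/PhJ (0.45 ± 0.04) and lower in every other mouse, with ratios from -2.14 to -0.02 (adjusted p = 5.81e-17). Rasgef1b, a Ras exchange factor gene, had a ratio of -0.98 ± 0.18 in PWK/PhJ (adjusted p = 2.65e-21), where its Drd2+ level was 209, 236, 168 and 211 CPM against 243 to 465 CPM.

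The other 4 genes pointed to other strains, with PWK/PhJ again among them for Cntnap3. Onecut2, a transcription factor gene, was at 15.1, 15.2, 19.8 and 9.4 CPM in Drd2+ neurons of NZO/HlLtJ and at 34.3, 27.7, 33.1 and 26.5 CPM in WSB/EiJ, with ratios of -2.83 ± 0.59 and -2.44 ± 0.22 against means of -1.46 to -1.14 elsewhere (adjusted p = 1.42e-20). Snhg11 had ratios of -0.44 ± 0.08 in NZO/HlLtJ, -0.40 in NOD/ShiLtJ and -0.31 in A/J, and of -0.04 to 0.03 in the other strains (adjusted p = 3.64e-22). Its levels were also lowest in those 3 strains. Cntnap3, a contactin-associated protein gene, had ratios of -4.90 ± 0.70 in C57BL/6 and -4.57 ± 0.51 in PWK/PhJ (adjusted p = 2.12e-11). In C57BL/6 it was at 7.52 ± 3.3 CPM in Drd2+ neurons and 219 CPM in Drd1+ neurons. Cntnap5c, of the same family, was lowest in NOD/ShiLtJ Drd2+ neurons at 3.08 ± 1.2 CPM, and its lowest ratio was -4.46 ± 0.11 in WSB/EiJ (adjusted p = 1.43e-11).

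**Figure D5:**
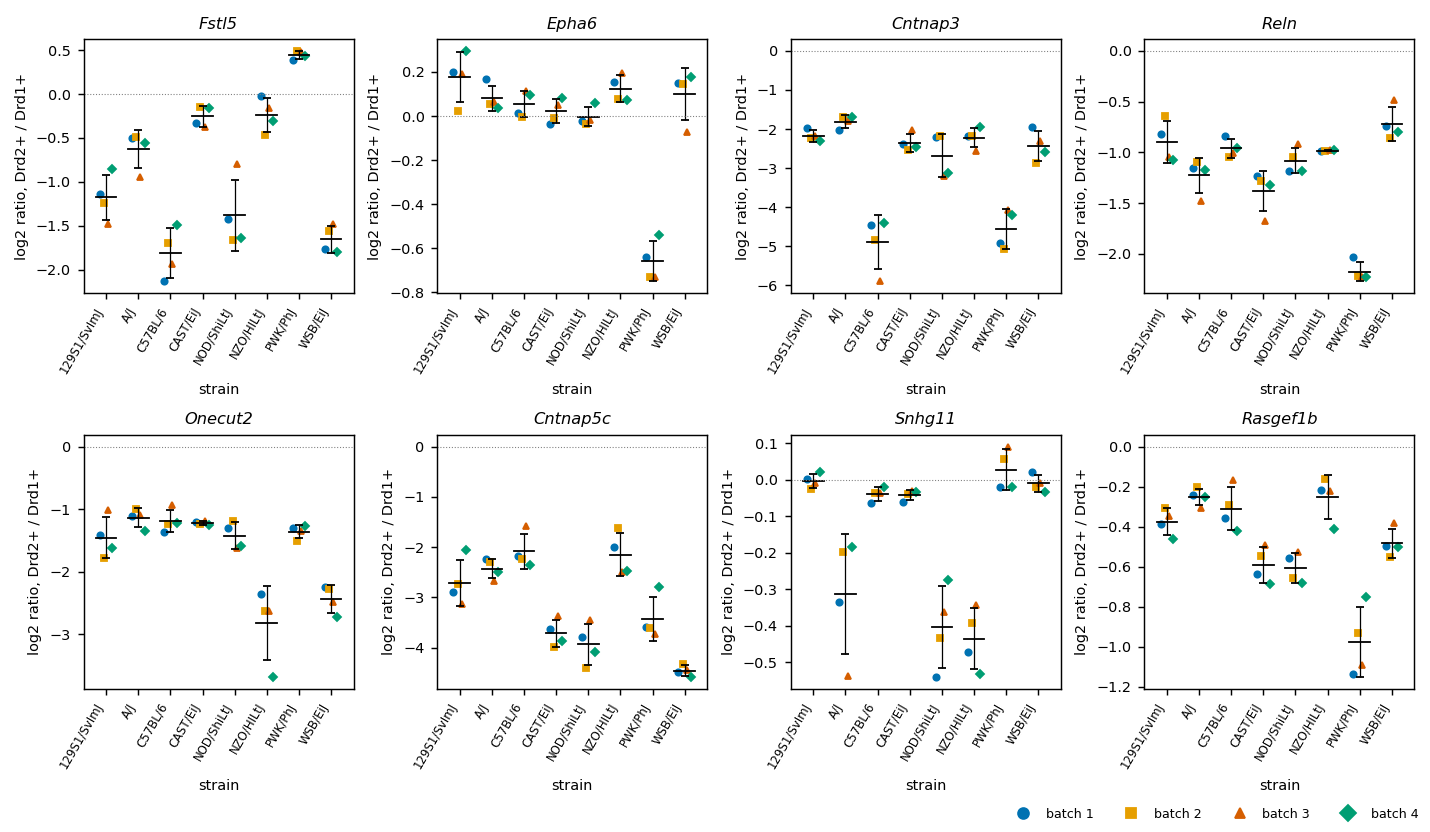
Log2 ratio of the level in Drd2+ to that in Drd1+ neurons in each mouse by strain for 8 genes with a called interaction (points, marked by batch; lines and error bars give the mean ± SD of 4 mice; the dotted line marks equal levels). The ratio of Epha6 in PWK/PhJ (-0.66 ± 0.09) lies below every other mouse.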

How the data were processed

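Nuclei of striatum were profiled with the 10x Genomics Multiome kit, per the labels' protocols. The deposited RNA matrices hold raw UMI counts per gene and nucleus, made by the authors with Cell Ranger ARC 2.0.0 after bcl2fastq 2.20.0.422 on build mm10 (GRCm38), per the submitters' processing notes. Clusters, strains and batches were read from the deposited annotation table, which also records that strain and doublets were called with Demuxlet and DoubletFinder; no nucleus was removed here, and the cluster names are the authors'. No step that corrects for free RNA is given in the sources used here. The chromatin data were not analysed here.

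Counts of Drd2+ nuclei were summed per mouse. Genes were filtered with filterByExpr by strain, scaled by TMM and fitted in edgeR 4.0.16 (R 4.3.3) by robust quasi-likelihood with strain and batch as terms. P-values were adjusted by Benjamini-Hochberg over all tested genes and called under 0.05. Batch entered as a block because each pool held 1 mouse of every strain, per the labels. CPM within Drd2+ neurons is over TMM-scaled totals, and identity levels are over raw totals. Standard errors are the absolute log2 fold change over the square root of F. Strain effects on the composition were tested by permuting strains within batches (100000 resamples, two-sided), adjusted over 3 measures. Ratios of cell types add 0.5 CPM to each level. Counting intervals are exact at 95% and cover counting error only. The model fits were tested on simulated data.

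Named genes were the 15 with the largest strain F, 2 per strain with the largest fold change whose 4 mice lay outside the other 28, and 8 by interaction F with the wider span in Drd2+ neurons, all at 10 CPM or more in the highest strain, passing over predicted genes. Results for 1 marker gene are not reported here. Members and lists were chosen with earlier results of these data known. Promoters and gene positions came from RefSeq on GRCm38.p6, where 26296 of 32285 symbols matched. Alternatives were DESeq2 1.42.0, RLE scaling, no filter, no block, thinned libraries, Drd1-free nuclei, other denominators and leaving out each batch.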

Additional observations from a re-analysis of the deposited data

Results flagged for a closer look

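In 8 of 110 groups of 4 mice, 1 mouse lay far from the other 3 (a gap to the nearest that exceeded Dixon's critical value at 95%); chance alone gives this in about 1 in 20 groups. For depth, these were the batch 3 mice of PWK/PhJ, with a median of 4170 UMIs per Drd2+ nucleus against 5539 to 5652.5, and of WSB/EiJ, with 4300.5 against 5993 to 6179. Among markers, Penk was high in 1 PWK/PhJ mouse, also of batch 3, at 1778.9 CPM against 982 to 1097 in the others, and Gpr52 was low in 1 NOD/ShiLtJ mouse, at 16.2 CPM against 19.1 to 19.6. Tmem181a was high in 1 129S1/SvImJ mouse, at 252.0 CPM, and low in 1 WSB/EiJ mouse, at 13.2 CPM. Dnah6 was high in 1 C57BL/6 mouse, at 3.72 CPM, and Osbpl1a low in 1 129S1/SvImJ mouse, at 7.69 CPM.

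The strain effect differed between Drd2+ and Drd1+ neurons for the 8 genes described above. The adjusted p of edgeR's interaction was 7.97e-30 for Epha6, 3.64e-22 for Snhg11, 2.65e-21 for Rasgef1b, 1.42e-20 for Onecut2, 5.81e-17 for Fstl5, 5.76e-12 for Reln, 1.43e-11 for Cntnap5c and 2.12e-11 for Cntnap3. Of these, Epha6, Fstl5, Reln and Rasgef1b had PWK/PhJ as the strain farthest from the others.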

How the results depend on the processing

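Of 113 alternative values of the counts and composition measures, 103 kept their direction and their side of the threshold or stayed within 1.5 times. Thinned libraries gave 3883 genes with a strain term, against 7153, and leaving out each batch gave 5595 to 6279. Leaving out each batch gave 909 to 1120 genes for 129S1/SvImJ, 1170 to 1597 for A/J, 1000 to 1237 for NOD/ShiLtJ, 1560 to 2200 for NZO/HlLtJ, 1298 to 1657 for WSB/EiJ, 421 to 488 for the interaction and a median of 1247 to 1658 over pairs. The fits that left out the replicate block called 6039 genes for the strain term, 6019 of them shared, but 96 for the interaction and gave an adjusted p of 0.789 for UMIs per nucleus. They also lost the strain terms of Adora2a (0.0892), Penk (0.889), Gpr6 (0.913), Grik3 (0.245) and Mbp (0.552), and changed the call of no other named gene. The share of Drd2+ neurons among neurons, in place of all nuclei, differed by strain (adjusted p = 0.0111), with 43.4% ± 3.31 in NOD/ShiLtJ and means of 38.0% to 40.1% in strains other than WSB/EiJ. Of 680 alternative values of named genes, 20 changed the call, in 12 of 72 results, and 0 reversed. DESeq2 called 6680 genes, 6600 of them shared. Genes of few counts are limited by depth: the smallest library held 1251786 counts.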

Other observations

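Genes that differ between regions of the striatum also varied with strain in Drd2+ neurons. All 3 tested genes of ventral and medial striatum and all 3 of dorsal and lateral striatum (Gpr155, Reln and Cnr1) were called, where 55.9% of all genes tested were. Nts, the neurotensin precursor, was higher in CAST/EiJ, at 55.5, 31.0, 31.8 and 25.4 CPM (1.63 ± 0.25 log2 units over the other 7 strains, SE, adjusted p = 2.27e-05 in edgeR). Wfs1, which encodes wolframin of the endoplasmic reticulum, was at 37.7 ± 5.19 CPM in WSB/EiJ and 12.5 ± 4.68 in C57BL/6 (SD, n = 4; strain term, adjusted p = 4.04e-05). Members of 1 list did not move together: in WSB/EiJ, Wfs1 was called higher and Nts lower (-1.60 ± 0.37 log2 units, SE, adjusted p = 0.00379). Of 5 matrix genes all were called: Sv2b, a synaptic vesicle protein gene, ran from 78.5 CPM in NOD/ShiLtJ to 164 in CAST/EiJ (adjusted p = 1.8e-15). Of 6 striosome genes 4 were called, close to the share of all genes, and of these Lypd1 was not called in thinned libraries (adjusted p = 0.413). Whether the dissected region differed between mice was not tested.

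Activity-induced genes varied between mice. Npas4, a transcription factor gene, ranged from 7.33 to 130 CPM over the 32 mice, with a median of 56.4. Of 9 tested, 2 had a called strain term, a lower share than the 55.9% of all genes: Fos, an immediate early gene, with means of 2.34 CPM in A/J to 13.4 in PWK/PhJ (adjusted p = 0.00754, or 0.129 without batch 2), and Dusp1, a phosphatase gene (adjusted p = 0.0363, or 0.105 without batch 1 and 0.215 without batch 2). The strain terms of Egr1, Arc, Fosb, Junb, Npas4, Nr4a1 and Nr4a3 were not called. Against the mean of the other 7 strains, Fos, Dusp1, Npas4 and Nr4a3 were called higher in PWK/PhJ and 0 lower, with a median difference of 0.86 log2 units over the list, where 15.2% of all genes tested were called higher.

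The fibroblast marker Dcn, the gene of a matrix proteoglycan, was at 22.3, 50.5, 29.9 and 68.1 CPM in Drd2+ neurons of WSB/EiJ and at most 6.4 CPM in all other mice (strain term, adjusted p = 6.74e-12). Lum, another proteoglycan gene, was at 13.7 ± 4.9 CPM in WSB/EiJ and had 0 counts in CAST/EiJ and PWK/PhJ (adjusted p = 2.28e-11). The collagen genes Col1a1 and Col1a2, which define fibroblasts, had 1 and 2 counts in the 4 WSB/EiJ mice and at most 4 and 8 in any strain.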
